A study of Mus musculus with 18 samples.

Results

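The genes of MHC class I antigen presentation were followed through the differentiation of mouse neural stem cells into astrocytes, with and without tumor necrosis factor (TNF). They comprised 10 of the 54838 genes of the count table, taken by name with no measured value in the rule, although earlier results of these data were known when they were chosen: *Nlrc5*, the heavy chain genes *H2-D1* and *H2-K1*, the light chain gene *B2m*, the peptide loading genes *Tap1*, *Tap2* and *Tapbp*, and the immunoproteasome genes *Psmb8*, *Psmb9* and *Psmb10*. All 10 were found by Ensembl identifier. Class I molecules display peptides from a cell's own proteins to CD8+ T cells. The proteasome cuts the proteins, the TAP transporter pumps the peptides into the endoplasmic reticulum, and tapasin holds the empty heavy chain and light chain there until a peptide binds. Neural cells are known for low class I levels at rest, and inflammatory cytokines such as interferons and TNF are known to raise them.

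Bulk RNA-seq was available for 6 conditions with 3 libraries each. All cells came from the ventricular zone of wild type C57BL/6J mouse brains at embryonic day 14, and no group carried a transgene or a deletion. Neurospheres (NSPs) were kept proliferating with EGF, whereas the other 5 groups were plated on poly-L-ornithine in medium with 10% fetal bovine serum and collected untreated after 24 h, 72 h or 1 week, or after 24 h or 72 h with TNF at 50 ng/ml. The study's methods describe stem cell cultures each derived from 1 brain and experiments repeated independently, but the labels do not tie a library to a brain or culture, so p-values measured the spread between these libraries. In bulk RNA a lower level from fewer expressing cells and from less RNA per cell cannot be told apart.

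The libraries held between 12509693 and 22549627 counts assigned to genes (median 16794798). Among the 18 libraries, the first replicates of 24 h TNF and of 72 h TNF stood apart from their group mates. Over the 1000 most variable genes their Pearson correlation with them was between 0.859 and 0.898, against at least 0.96 for every other pair within a group. The first NSP replicate also differed from its mates, with a chi-square per degree of freedom over all genes of 40.5 and 46.4 against 3.71 between the other 2. The labels gave RNA quality numbers between 3.4 and 10 over all libraries, without saying which library had which. The 7 astrocyte markers summed to between 2466 and 7524 CPM (read counts of a gene relative to the size of its library) and the 5 neuronal markers to between 1426 and 2092 CPM over all groups. *Gfap*, the defining astrocyte marker, was at 27.1 ± 13.7 CPM in NSPs (SD, n = 3), 899 ± 44.6 CPM at 24 h, 2432 ± 673 CPM at 72 h and 63.4 ± 15.9 CPM at 1 week. Its 1 week libraries (52.7 to 81.6 CPM) lay above those of NSPs and below those of 24 h. The other markers of the list did not follow *Gfap* alike. Of the 7, 3 were called higher (*Gfap*, *Aqp4* and *Aldh1l1*) and 1 lower (*S100b*) at 24 h against NSPs, with a median log2 fold change of -0.16, and 2 higher (*Gfap* and *Aqp4*) and 2 lower (*Slc1a3* and *S100b*) at 72 h against NSPs, with a median of -0.35. Of all 20067 tested genes 52.7% and 55.3% were called in these comparisons, so the 4 marker calls at each time were near the background. At 1 week against 72 h 5 were called lower by edgeR, with a median of -2.12, where 3.96% of all genes were called lower.

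Of the 10 genes, 7 lay on chromosome 17, within the major histocompatibility complex. On GRCm38 (mm10), *Psmb9* (chromosome 17, 34181987 to 34187764, minus strand), *Tap1* (34187553 to 34197225, plus strand), *Psmb8* (34197721 to 34201454, plus strand) and *Tap2* (34203527 to 34216321, plus strand) formed a block of 34335 bases. *Psmb9* and *Tap1* ran head to head and shared 212 exonic bases on opposite strands. *Tapbp* (33915899 to 33929292, plus strand) and *H2-K1* (33996017 to 34000347, minus strand) lay before this block, and *H2-D1* (35262730 to 35267499, plus strand) after it. *B2m* lay on chromosome 2 (122147686 to 122153083, plus strand), and *Psmb10* (105935735 to 105938444, minus strand) and *Nlrc5* (94434356 to 94527272, plus strand) on chromosome 8.

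Promoters are shown because the genes that encode the class I molecule itself shared motifs there that other members of the pathway did not have in the same window. RefSeq windows (GRCm38.p6, from 250 bases before the transcript start to 50 bases from it) were found for 8 of the 10 genes, and *Tap2* and *Nlrc5* had none. They were searched on both strands for a κB-like motif (GGGA and, after any 4 bases, CC), for an interferon regulatory factor (IRF) motif, AANNGAAA, and for the CCAAT box, CCAAT. Capitals mark the matches, and where κB-like matches on the 2 strands overlapped they appear as 1 stretch.

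H2-D1 promoter, chr17:35262844-35263143, plus strand, GRCm38.p6: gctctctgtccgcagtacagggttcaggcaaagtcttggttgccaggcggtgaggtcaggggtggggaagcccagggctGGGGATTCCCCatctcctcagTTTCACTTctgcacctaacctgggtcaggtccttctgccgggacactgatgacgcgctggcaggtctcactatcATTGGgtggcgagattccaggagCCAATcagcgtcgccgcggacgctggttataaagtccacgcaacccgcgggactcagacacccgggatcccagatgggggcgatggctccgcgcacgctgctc
H2-K1 promoter, chr17:34000298-34000597, minus strand, GRCm38.p6: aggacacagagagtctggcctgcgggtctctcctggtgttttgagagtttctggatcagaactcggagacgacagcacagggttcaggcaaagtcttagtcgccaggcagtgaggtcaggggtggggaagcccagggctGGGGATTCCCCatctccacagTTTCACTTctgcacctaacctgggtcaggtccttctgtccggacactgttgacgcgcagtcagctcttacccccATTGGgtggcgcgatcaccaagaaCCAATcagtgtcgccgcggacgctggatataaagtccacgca
B2m promoter, chr2:122147437-122147736, plus strand, GRCm38.p6: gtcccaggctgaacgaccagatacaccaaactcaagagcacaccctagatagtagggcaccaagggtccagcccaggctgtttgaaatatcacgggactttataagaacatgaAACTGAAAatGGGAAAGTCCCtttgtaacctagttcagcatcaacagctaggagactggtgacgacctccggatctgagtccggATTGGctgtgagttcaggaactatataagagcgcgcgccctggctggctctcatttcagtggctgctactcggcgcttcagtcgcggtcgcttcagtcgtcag
Tap1 promoter, chr17:34187306-34187605, plus strand, GRCm38.p6: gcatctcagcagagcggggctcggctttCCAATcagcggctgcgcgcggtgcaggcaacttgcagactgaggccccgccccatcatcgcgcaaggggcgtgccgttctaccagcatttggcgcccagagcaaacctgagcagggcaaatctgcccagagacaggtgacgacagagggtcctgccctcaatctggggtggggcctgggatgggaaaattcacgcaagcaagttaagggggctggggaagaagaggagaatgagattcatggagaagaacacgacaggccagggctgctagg

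A κB-like and an IRF motif were present together in the *H2-D1*, *H2-K1* and *B2m* windows, which was 3 of the 8 windows. Counted from the transcript start, the κB-like bases GGGATTCCCC of *H2-D1* lay at -170 to -161 and its IRF bases, TTTCACTT on the printed strand, at -150 to -143. The *H2-K1* window held the same bases in the same order, at -110 to -101 and -90 to -83, and the longest run that both windows shared was 47 bases. In *B2m* the order was the reverse, with the IRF bases AACTGAAA at -137 to -130 and GGGAAAGTCC at -127 to -118. A CCAAT box was found in 6 of the 8 windows, among them those of *Tap1* and *Psmb9*, which overlapped by 275 bases. Of all 32851 RefSeq promoter windows of this length, 20.7% held the κB-like motif, 23.9% the IRF motif, 37.4% the CCAAT box and 3.7% both of the first 2. A match is a description of the letters and not a bound site, and the absence of a match says only that these letters were not in the window.

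*Nlrc5*, the transactivator that binds class I promoters, had the largest fold change of the 9 tested genes in untreated cells at 24 h and at 72 h against NSPs. Its level was 0.317, 0.384 and 0.512 CPM in the NSP libraries, from 21 counts in all. At 24 h it was 3.55, 2.8 and 3.99 CPM, and at 72 h 8.48, 6.38 and 6.38 CPM. No library overlapped between these 3 groups. The log2 fold change from NSPs was 3.05 (SE 0.32, edgeR adjusted p = 4.37e-07) at 24 h and 4.09 (SE 0.31, edgeR adjusted p = 2.89e-09) at 72 h. Per kilobase of exon *Nlrc5* was nevertheless a low transcript, at 0.834 ± 0.142 RPKM (CPM per kilobase of exon, SD, n = 3) at 72 h. By 1 week it had fallen to 2.12, 3.12 and 2.61 CPM, a log2 fold change of -1.44 against 72 h (SE 0.25, edgeR adjusted p = 0.00128).

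The heavy chain genes, whose products bind the peptide, also rose with time. *H2-D1* was at 2.28, 2.97 and 3.36 CPM in NSPs, 5.67, 3.8 and 5.62 CPM at 24 h, and 12.0, 15.6 and 17.3 CPM at 72 h, with no overlap between the 3 groups. Its log2 fold change from NSPs was 0.79 (SE 0.28, edgeR adjusted p = 0.0235) at 24 h and 2.38 (SE 0.27, edgeR adjusted p = 5.83e-07) at 72 h. *H2-K1* followed later. It was at 3.24, 7.52 and 5.86 CPM in NSPs and at 7.18, 5.65 and 4.73 CPM at 24 h, where the groups overlapped (log2 fold change 0.07, SE 0.36, edgeR adjusted p = 0.878). At 72 h *H2-K1* reached 12.9, 18.3 and 20.4 CPM, above every earlier untreated library (log2 fold change from NSPs 1.63, SE 0.35, edgeR adjusted p = 0.000669). At 1 week *H2-D1* was at 9.72, 6.96 and 10.6 CPM and *H2-K1* at 10.9, 8.99 and 12.7 CPM. Both were below every 72 h library, but neither passed the test (edgeR adjusted p = 0.0906 and 0.29). Both were called lower with no filter on low counts (edgeR adjusted p = 0.0194 and 0.0291) and with only the 2 groups compared in the fit (edgeR adjusted p = 0.0382 and 0.0486).

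*B2m*, the light chain that all class I heavy chains share, was the most abundant of the 10 genes per kilobase of exon in every condition, and it took another course. Its level was 60.9, 65.6 and 63.4 CPM in NSPs and 41.0, 51.3 and 34.2 CPM at 24 h, which was lower (log2 fold change -0.58, SE 0.17, edgeR adjusted p = 0.00837). At 72 h it was 52.1, 65.2 and 83.3 CPM, on either side of the NSP values. The heavy chains *H2-D1* and *H2-K1* together, per kilobase of exon, were 4.05 ± 1.09% of *B2m* in NSPs (SD, n = 3), 8.32 ± 2.27% at 24 h, 15.1 ± 1.07% at 72 h and, after 1 week, 11.3 ± 1.31%. The light chain transcript thus exceeded these heavy chain transcripts as counted at each time, by most in NSPs and by least at 72 h. If reads matching several heavy chain genes were left uncounted, these percentages are too low, and the treatment of such reads was not given in the sources used here.

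Among the peptide loading genes, *Tap2* and *Tapbp* rose and *Tap1* did not pass the main test. *Tapbp*, which encodes tapasin, was at 21.6, 33.8 and 30.8 CPM in NSPs, 36.3, 42.7 and 41.6 CPM at 24 h, and 69.6, 91.2 and 78.1 CPM at 72 h. The 3 groups did not overlap, and the log2 fold change from NSPs to 72 h was 1.47 (SE 0.17, edgeR adjusted p = 6.75e-07). *Tap2*, which encodes the second chain of the transporter, was at 1.46, 3.68 and 3.36 CPM in NSPs, 3.93, 5.76 and 4.32 CPM at 24 h, and 6.81, 7.91 and 7.48 CPM at 72 h (log2 fold change from NSPs to 72 h 1.38, SE 0.26, edgeR adjusted p = 0.000182). Its partner in the dimer, *Tap1*, was at 9.84, 12.1 and 14.5 CPM in NSPs and at 7.87, 12.4 and 11.1 CPM at 72 h, which overlapped (edgeR adjusted p = 0.37). At 24 h *Tap1* was at 7.71, 9.73 and 8.88 CPM, below every NSP library (log2 fold change -0.47, SE 0.20, edgeR adjusted p = 0.0539). It was called lower there with RLE scaling (edgeR adjusted p = 0.0407), with DESeq2 (adjusted p = 0.0389) and without the first NSP replicate (log2 fold change -0.60, edgeR adjusted p = 0.0208). Per kilobase of exon *Tap2* was 33.0 ± 11.3% of *Tap1* in NSPs and 105 ± 17.7% at 72 h (SD, n = 3).

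The immunoproteasome genes encode catalytic subunits that replace those of the standard proteasome. *Psmb9* was at 0.825, 0.659 and 0.796 CPM in NSPs, from 39 counts in all, and at 0.227, 0.184 and 0.275 CPM at 72 h, from 11 counts. It was lower than in NSPs at 24 h (log2 fold change -1.21, SE 0.34, edgeR adjusted p = 0.00996) and at 72 h (-1.69, SE 0.35, edgeR adjusted p = 0.000524). The call at 24 h was lost without the second 24 h replicate, with no filter on low counts and with DESeq2, another count model. *Psmb8* had 1 count over the 3 NSP libraries, 0 over the 24 h libraries, 0 over the 72 h libraries and 5 at 1 week, and it did not pass the filter on low counts. *Psmb10* was at 9.84, 12.2 and 10.6 CPM in NSPs and at 6.51, 7.79 and 9.58 CPM at 72 h (log2 fold change -0.45, SE 0.20, edgeR adjusted p = 0.0616).

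**Figure D1:**
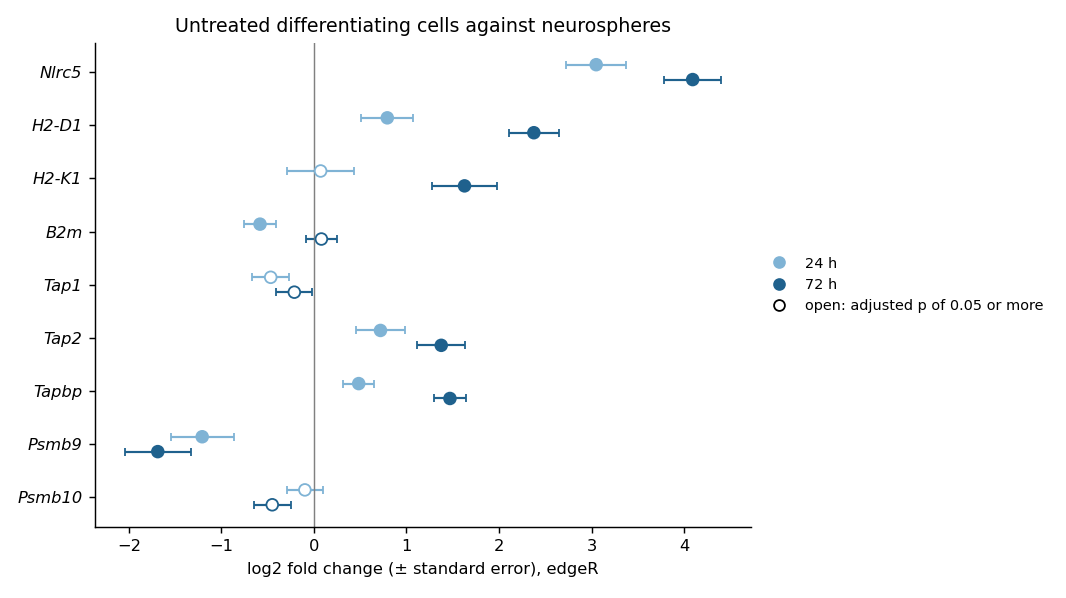
Log2 fold change with its standard error (x axis, edgeR) of the 9 tested genes (y axis) in untreated cells at 24 h and 72 h against NSPs. Filled points had an adjusted p-value under 0.05; at 72 h *Nlrc5* (4.09), *H2-D1* (2.38), *H2-K1* (1.63), *Tapbp* (1.47) and *Tap2* (1.38) lay above 0, and *Psmb9* (-1.69) lay below.

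Against NSPs, 4 of the 9 tested genes were called higher at 24 h and 2 were called lower, where 52.7% of all 20067 tested genes were called in either direction (27.2% higher and 25.5% lower). At 72 h 5 were called higher and 1 lower, where 55.3% of all genes were called (28.1% higher and 27.2% lower). A call was an adjusted p-value under 0.05. The median log2 fold change of the 9 genes was 0.07 at 24 h and 1.38 at 72 h, and that of all genes 0.06 and 0.05. The calls at 24 h leaned on single libraries. Without the first NSP replicate, 1 gene was called higher and 3 lower at 24 h, with *H2-D1*, *Tap2* and *Tapbp* no longer called, and without the second 24 h replicate 3 were called (*H2-D1* and *Nlrc5* higher and *B2m* lower). The *H2-D1* call was also lost without the second NSP or the first or the third 24 h replicate, and that of *Tapbp* without the third 24 h replicate. The calls of *B2m* and *Nlrc5* held without each library in turn. At 72 h *Psmb10* joined *Psmb9*, for a split of 5 higher and 2 lower, under each of 4 separate alternatives: the relative log expression (RLE) scaling, the replicate number as a block, and leaving out the first NSP or the third 72 h replicate. It did so too with that 72 h library unpaired in the block.

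From 24 h to 72 h without TNF, 5 of the 9 genes were called higher and 0 lower (edgeR, with 0 lower at an unadjusted p under 0.05 and 0 with DESeq2), where 24.8% of all genes were called (12.2% higher and 12.6% lower). These were *H2-D1* (log2 fold change 1.58, SE 0.26, edgeR adjusted p = 0.000185), *H2-K1* (1.56, SE 0.35, edgeR adjusted p = 0.0031), *Nlrc5* (1.04, SE 0.24, edgeR adjusted p = 0.00386), *Tapbp* (0.99, SE 0.17, edgeR adjusted p = 0.000248) and *B2m* (0.66, SE 0.17, edgeR adjusted p = 0.00783). The *B2m* call was lost without the third 72 h replicate, its highest library at 72 h (83.3 CPM), where the log2 fold change was 0.43. *Tap2* missed the threshold but was called higher with DESeq2 (log2 fold change 0.66, adjusted p = 0.0387), with only the 2 groups compared (0.65, edgeR adjusted p = 0.0283) and without the second 24 h replicate (0.86, edgeR adjusted p = 0.046). From 72 h to 1 week *Nlrc5* was the 1 gene called of the 9 by edgeR and by DESeq2, lower, where 6.63% of all genes were called (2.68% higher and 3.96% lower). The 24 h and 72 h comparisons with NSPs shared the NSP libraries.

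With TNF, both heavy chain genes were higher at both times. At 24 h, *H2-D1* was at 22.5, 11.9 and 14.8 CPM with TNF against 5.67, 3.8 and 5.62 CPM without. At 72 h it was at 33.0, 44.4 and 51.1 CPM with TNF against 12.0, 15.6 and 17.3 CPM without. The treated and untreated libraries did not overlap at either time, and the log2 fold change was 1.72 (SE 0.26, edgeR adjusted p = 0.000605) at 24 h and 1.52 (SE 0.24, edgeR adjusted p = 0.00039) at 72 h.

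*H2-K1* was at 33.6, 10.96 and 13.03 CPM with TNF at 24 h against 7.18, 5.65 and 4.73 CPM without, so that the groups did not overlap and the first treated library lay far above the other 2. The log2 fold change was 1.72 (SE 0.35, edgeR adjusted p = 0.0087), and without that library, which stood apart, it was 1.02 and missed the threshold (edgeR adjusted p = 0.0593). The call was also lost without the second or the third untreated 24 h library. At 72 h *H2-K1* was at 40.8, 44.2 and 49.8 CPM with TNF against 12.9, 18.3 and 20.4 CPM without (log2 fold change 1.38, SE 0.33, edgeR adjusted p = 0.0116). *H2-D1*, *H2-K1* and the other class I heavy chain genes are close paralogs. The division of reads among them, and whether shared reads were counted at all, is therefore uncertain.

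*B2m* rose to 95.6, 89.1 and 79.8 CPM with TNF at 24 h, from 41.0, 51.3 and 34.2 CPM without (log2 fold change 1.06, SE 0.17, edgeR adjusted p = 0.00117). At 72 h it was at 109, 145 and 117 CPM with TNF and 52.1, 65.2 and 83.3 CPM without (log2 fold change 0.89, SE 0.17, edgeR adjusted p = 0.00202). The groups did not overlap at either time. In absolute level *B2m* at 72 h with TNF was the highest value of any of the 10 genes, at 144 ± 21.99 RPKM (SD, n = 3). The heavy chains were 12.4 ± 5.20% of *B2m* per kilobase of exon at 24 h with TNF (SD, n = 3) against 8.32 ± 2.27% untreated, where the libraries overlapped (exact two-sided permutation test, p = 0.4). The first 24 h TNF library was at 18.1% and the other 2 at 8.04% and 10.97%, a mean of 9.5% without it. At 72 h they were 22.4 ± 4.10% with TNF against 15.1 ± 1.07% untreated, without overlap (exact two-sided permutation test, p = 0.1, the smallest that 3 against 3 libraries allow).

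Both transporter chains rose. *Tap1* went from 7.71, 9.73 and 8.88 CPM to 19.5, 14.5 and 20.5 CPM with TNF at 24 h (log2 fold change 1.048, SE 0.20, edgeR adjusted p = 0.00432) and from 7.87, 12.4 and 11.1 CPM to 26.4, 19.9 and 25.9 CPM at 72 h (1.2, SE 0.19, edgeR adjusted p = 0.000442). *Tap2* went from 3.93, 5.76 and 4.32 CPM to 12.0, 8.13 and 8.55 CPM at 24 h (1.02, SE 0.25, edgeR adjusted p = 0.0261), and from 6.81, 7.91 and 7.48 CPM to 13.9, 12.9 and 15.6 CPM at 72 h (0.93, SE 0.24, edgeR adjusted p = 0.0186). No treated library overlapped an untreated one for either gene. With the third 72 h library unpaired in a replicate block the *Tap2* calls at both times were lost. The *Tap2* call at 24 h was lost without the first 24 h TNF replicate (log2 fold change 0.81, edgeR adjusted p = 0.148) and without either the first or the third untreated replicate, and at 72 h it was lost without the second or the third untreated or the third treated replicate. *Tapbp*, the other loading gene, did not pass the test. It was at 64.2, 45.3 and 54.7 CPM with TNF at 24 h against 36.3, 42.7 and 41.6 CPM without (log2 fold change 0.45, SE 0.17, edgeR adjusted p = 0.188), without overlap, and at 67.5, 74.6 and 88.4 CPM at 72 h against 69.6, 91.2 and 78.1 CPM (-0.05, SE 0.16, edgeR adjusted p = 0.876), where the groups overlapped. Zbtb22 overlaps *Tapbp* on the same strand, and 4.11% of the exonic bases of *Tapbp* were shared with exons of its own strand and 24.9% with exons of the opposite strand.

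**Figure D2:**
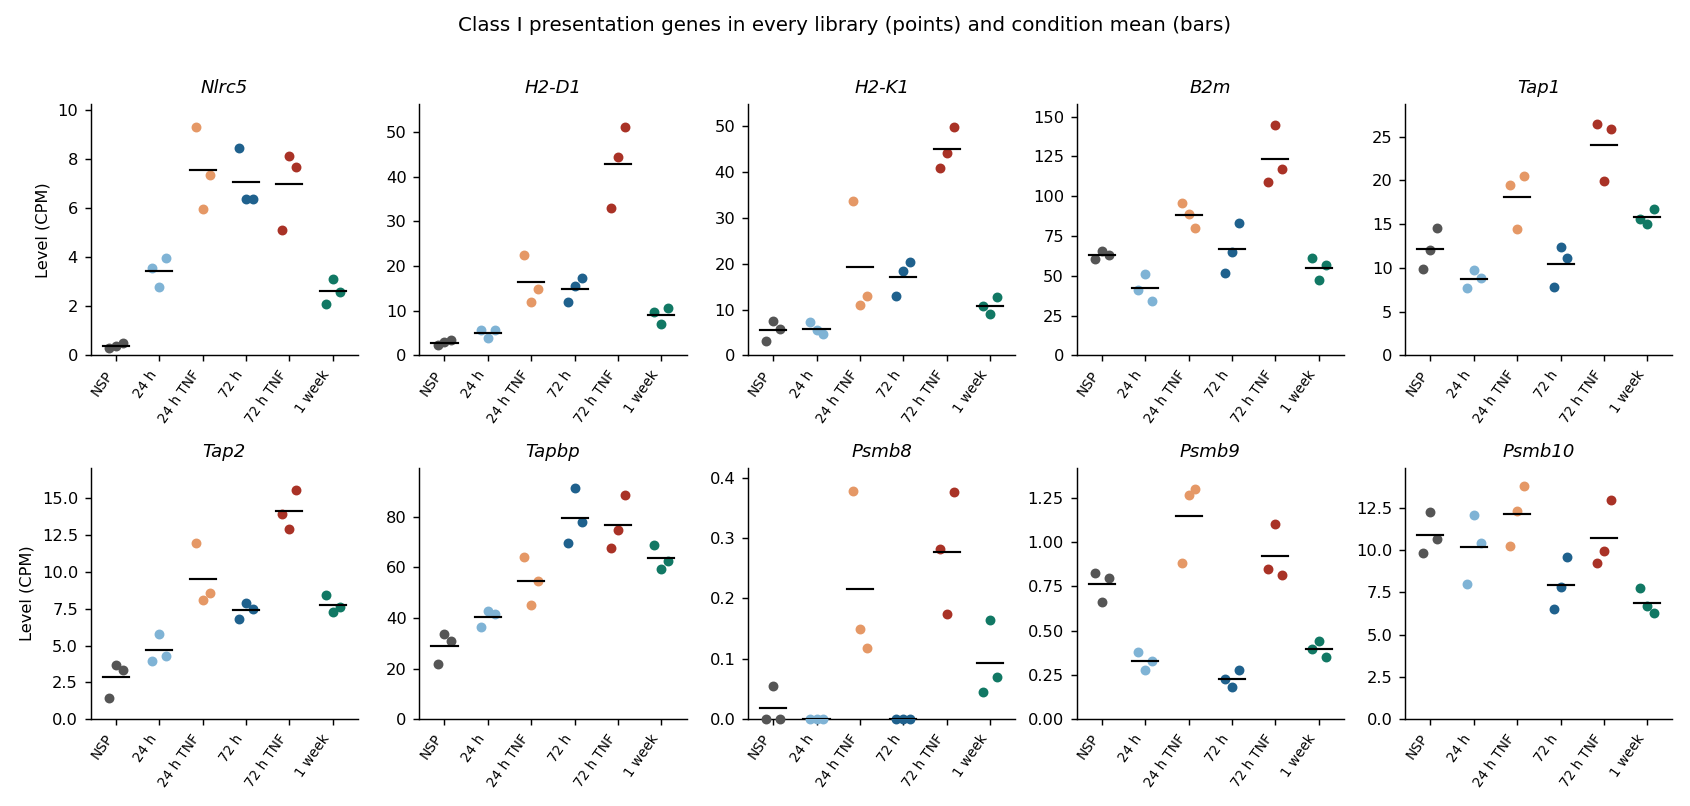
Level in CPM (y axis, from 0) of the 10 genes in each of the 18 libraries (points) by condition (x axis), with the condition mean as a bar. *H2-D1*, *H2-K1*, *B2m*, *Tap1* and *Tap2* were highest at 72 h with TNF, *Tapbp* was at 79.6 CPM without and 76.9 CPM with TNF at 72 h, and *Nlrc5* lay between 5.13 and 9.32 CPM in 24 h TNF, 72 h and 72 h TNF.

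The immunoproteasome genes did not move alike. *Psmb9* had 5, 5 and 4 counts in the 24 h libraries and 14, 17 and 22 with TNF, or 0.378, 0.28 and 0.326 CPM against 0.882, 1.27 and 1.3 CPM. At 72 h it had 3, 3 and 5 counts without TNF and 15, 19 and 13 with it, or 0.227, 0.184 and 0.275 CPM against 0.845, 1.1 and 0.813 CPM. The log2 fold change was 1.80 (SE 0.33, edgeR adjusted p = 0.00336) at 24 h and 1.97 (SE 0.35, edgeR adjusted p = 0.00101) at 72 h, the largest of the 9 tested genes at both times, on few reads. Its level in NSPs was 0.76 ± 0.0888 CPM (SD, n = 3). The 24 h TNF libraries (1.15 ± 0.232 CPM) all lay above it, and the 72 h TNF libraries (0.92 ± 0.159 CPM) overlapped with it.

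*Psmb8* had 6, 2 and 2 counts with TNF at 24 h and 5, 3 and 6 at 72 h, against 0 in all 6 untreated libraries of those times. Set against a floor of 3 counts over the untreated group, the level with TNF was 3.13-fold the floor at 24 h and 4.37-fold at 72 h. The treated counts were taken as exact, so these values are not lower limits. The first 24 h TNF library, which stood apart, held 6 of the 10 counts, and the value without it was 1.91-fold, from 4 counts. Without the first 72 h TNF library it was 4.31-fold, from 9 counts. These values, and the ratios and list genes given without the first TNF library of a time, were computed after seeing the data. The gene did not pass the filter in the main test, and with no filter or with a minimum of 5 counts over all libraries it was called at 72 h and not at 24 h. *Psmb10* was at 10.3, 12.3 and 13.8 CPM with TNF at 24 h against 8.01, 12.1 and 10.4 CPM without (log2 fold change 0.25, SE 0.20, edgeR adjusted p = 0.662), and at 9.24, 9.92 and 12.95 CPM at 72 h against 6.51, 7.79 and 9.58 CPM (0.42, SE 0.20, edgeR adjusted p = 0.192). Treated and untreated *Psmb10* libraries overlapped at both times.

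Each immunoproteasome subunit takes the place of a particular standard subunit, so the levels of the pairs were compared within each library per kilobase of exon. *Psmb8* was 0.258 ± 0.237% of *Psmb5* with TNF at 24 h (SD, n = 3) and 0.379 ± 0.103% at 72 h. The 24 h TNF libraries were at 0.53%, 0.152% and 0.0936%, so that the mean without the first was 0.123%. At 72 h the mean without the first TNF library was 0.365%. *Psmb9* was 0.636 ± 0.0555% of *Psmb6* at 24 h with TNF against 0.188 ± 0.0496% without, and 0.744 ± 0.171% against 0.151 ± 0.0383% at 72 h. *Psmb10* was a far larger part of its pair, at 30.5 ± 0.44% of *Psmb7* with TNF against 25.8 ± 3.11% without at 24 h, and 36.9 ± 8.57% against 23.4 ± 0.395% at 72 h. The *Psmb5*, *Psmb6* and *Psmb7* denominators themselves did not pass the TNF test at either time, but at 72 h they had log2 fold changes of -0.46, -0.32 and -0.22.

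The mean over the 3 pairs of the log2 ratio, with 2 counts added to each gene, was higher with TNF by 1.01 at 24 h and by 1.5 at 72 h. No treated library overlapped an untreated one, and the exact two-sided permutation p was 0.1 in both, the smallest that this design allows. *Psmb8* had no counts in the untreated libraries of these times, so its untreated level here was that of the added counts alone. The size of the difference therefore depends on the added counts, and values with another number of them are not given here. Lengths bear on these percentages, since the annotated exons of *Psmb9* sum to 3660 bases and its coding length to 676. With coding lengths, an alternative chosen after seeing the data, *Psmb9* was 1.31% of *Psmb6* at 24 h and 1.54% at 72 h with TNF, *Psmb8* 0.93% and 1.36% of *Psmb5*, and *Psmb10* 15.4% and 18.6% of *Psmb7*. By coding length the libraries of the *Psmb8* and *Psmb9* pairs overlapped, at 0.337% to 1.91% and 1.19% to 1.42% at 24 h, and at 0.953% to 1.67% and 1.28% to 1.94% at 72 h.

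**Figure D3:**
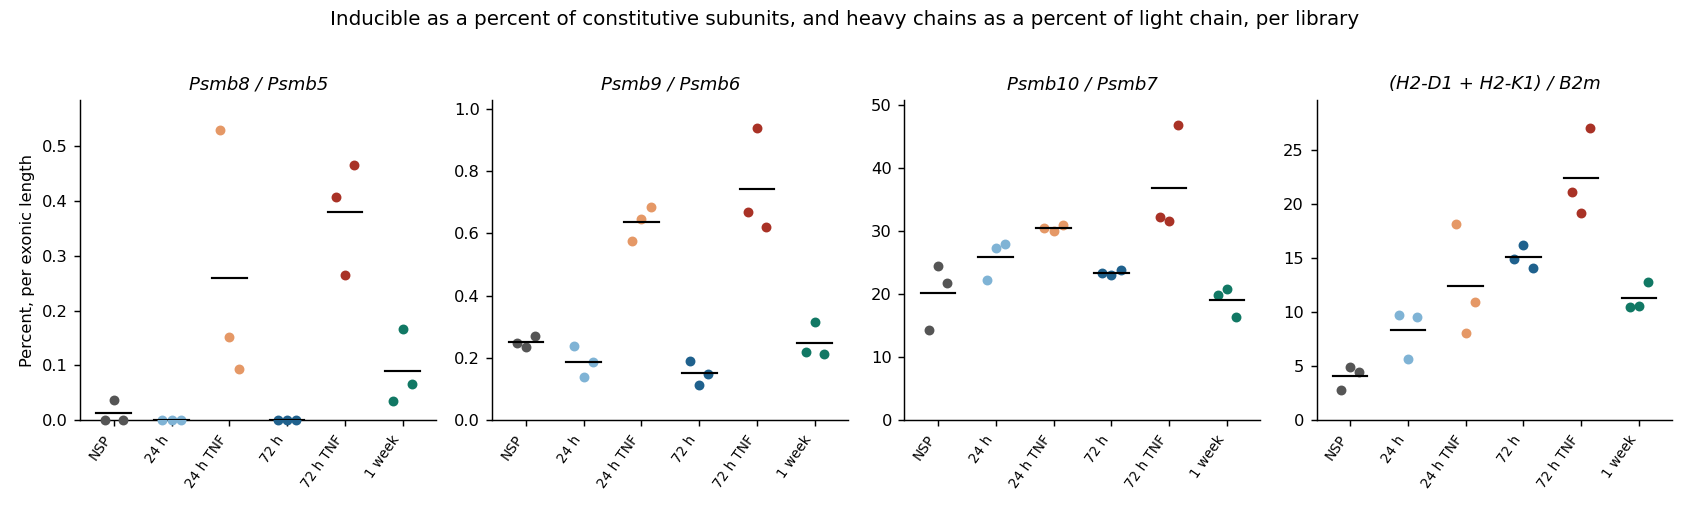
Level of each immunoproteasome gene as a percent of its standard counterpart, and of *H2-D1* plus *H2-K1* as a percent of *B2m* (y axes, from 0, per kilobase of exon), in each library (points) by condition (x axis), with the condition mean as a bar. With TNF *Psmb9* was at 0.636% of *Psmb6* at 24 h and 0.744% at 72 h, whereas *Psmb10* was between 14.2% and 46.8% of *Psmb7* over all libraries.

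*Nlrc5* had the largest difference between its TNF responses at the 2 times. At 24 h it was at 9.32, 5.97 and 7.37 CPM with TNF against 3.55, 2.8 and 3.99 CPM without, which did not overlap (log2 fold change 1.14, SE 0.24, edgeR adjusted p = 0.0106). At 72 h it was at 5.13, 8.12 and 7.7 CPM with TNF against 8.48, 6.38 and 6.38 CPM without, which did (-0.02, SE 0.23, edgeR adjusted p = 0.99). The 24 h TNF, 72 h and 72 h TNF libraries overlapped with each other and lay between 5.13 and 9.32 CPM. The call at 24 h was lost without the first 24 h TNF replicate (log2 fold change 0.95, edgeR adjusted p = 0.0726) and without the second untreated one.

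In counts, 7 of the 9 tested genes were called higher with TNF at 24 h and 0 lower (edgeR, with 0 lower at an unadjusted p under 0.05 and 0 with DESeq2), where 3.5% of all genes were called (2.18% higher and 1.32% lower). At 72 h 6 were called higher and 0 lower, again with 0 lower at an unadjusted p and 0 with DESeq2, where 9.56% of all genes were called (4.35% higher and 5.21% lower). The median log2 fold change of the 9 genes was 1.06 at 24 h and 0.93 at 72 h, against -0.0052 and -0.0088 over all genes. The genes called at 72 h were also called at 24 h, when *Nlrc5* was added. Leaving out the first 24 h TNF replicate left 4 calls at 24 h (*H2-D1*, *B2m*, *Tap1* and *Psmb9*). Leaving out the first TNF replicate of both times, chosen after seeing the data, left 6 calls at 24 h, where *Tap2* was lost and *Nlrc5* kept, and 6 at 72 h, where *Tap2* was kept and *Nlrc5* was again not called.

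**Figure D4:**
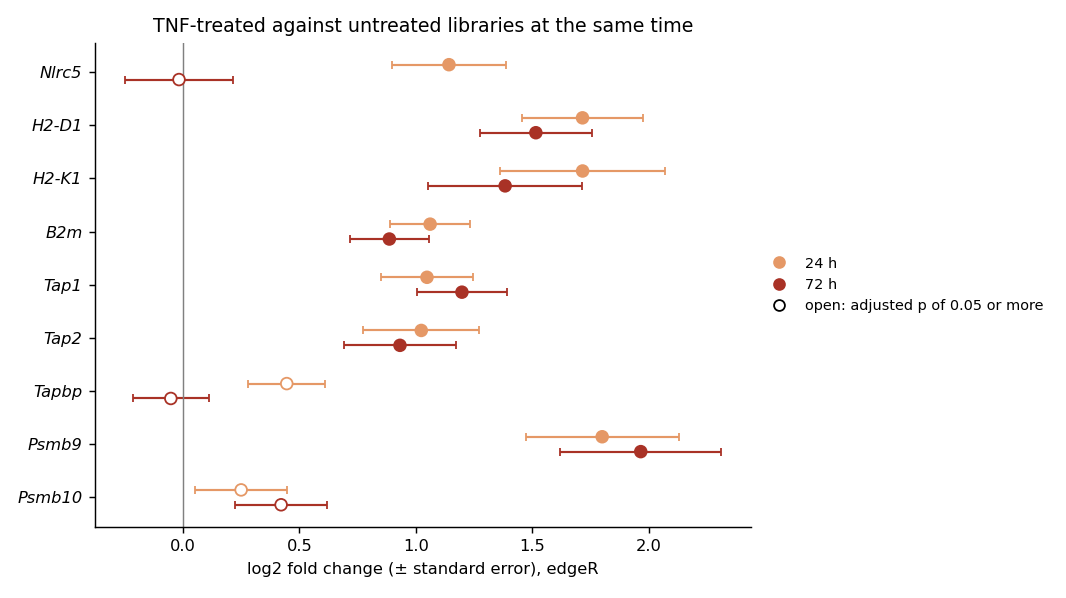
Log2 fold change with its standard error (x axis, edgeR) of the 9 tested genes (y axis) with TNF against untreated libraries of the same time, at 24 h and 72 h. Filled points had an adjusted p-value under 0.05; *Tapbp* (0.45 and -0.05) and *Psmb10* (0.25 and 0.42) were open at both times and *Nlrc5* (1.14 and -0.02) at 72 h alone.

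Whether the TNF response itself differed between 24 h and 72 h was tested as an interaction. With edgeR's quasi-likelihood test 0 of the 9 genes were called, where 0.458% of all genes were called (0.135% higher and 0.324% lower). DESeq2 called 0 of the 8 genes for which it gave an adjusted p-value. At an unadjusted p under 0.05 edgeR had 2 genes. These were *Nlrc5* (log2 difference of the responses -1.16, SE 0.34, edgeR adjusted p = 0.178) and *Tapbp* (-0.50, SE 0.23, edgeR adjusted p = 0.486). The differing calls of *Nlrc5* at the 2 times were therefore not shown to be a different response. For the other 7 genes the log2 difference lay between -0.33 (*H2-K1*, SE 0.48) and 0.17 (*Psmb10*, SE 0.28), and standard errors of this size leave room for unequal responses in either direction.

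Within TNF-treated cells, 2 of the 9 genes were called higher at 72 h than at 24 h and 0 lower (edgeR, with 0 lower at an unadjusted p under 0.05 and 0 with DESeq2), where 13.3% of all genes were called (5.38% higher and 7.93% lower). These were *H2-D1* (log2 fold change 1.38, SE 0.24, edgeR adjusted p = 0.000938) and *H2-K1* (1.22, SE 0.33, edgeR adjusted p = 0.0189). The same 2 genes were called with the replicate number as a block, and with the third 72 h library unpaired in that block *B2m* was called as well (log2 fold change 0.48, edgeR adjusted p = 0.0467). Without the first 24 h TNF replicate, which carried the 24 h TNF mean of *H2-K1*, the log2 fold change of *H2-K1* was 1.94, and without the first TNF replicate of both times it was 1.98. *Tapbp* and *B2m* had log2 fold changes of 0.49 and 0.49 and missed the threshold (edgeR adjusted p = 0.0563 and 0.0641). DESeq2 called *Tapbp* higher (adjusted p = 0.0407), and with no filter or with at least 10 counts in every library both genes were called by edgeR (adjusted p between 0.0153 and 0.0408). Without the first 24 h TNF replicate, 5 genes were called, with *B2m*, *Tap2* and *Tapbp* added, and without the first 72 h TNF replicate 4. Without the second or the third 24 h TNF replicate or the third 72 h TNF replicate, *H2-D1* alone was called.

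Ordered by mean level, *H2-D1* went from NSPs through 24 h, 1 week, 72 h and 24 h TNF to 72 h TNF, and the ranges of 72 h (12.0 to 17.3 CPM) and 24 h TNF (11.9 to 22.5 CPM) were the only neighbours of that order to overlap. *H2-K1* had the same order, where NSPs and 24 h also overlapped. *B2m* went from 24 h through 1 week, NSPs, 72 h and 24 h TNF to 72 h TNF, and every neighbouring pair overlapped except the last. *Tap2* rose through NSPs, 24 h, 72 h, 1 week, 24 h TNF and 72 h TNF. Its 1 week libraries (7.29 to 8.44 CPM) overlapped with both 72 h and 24 h TNF. *Tap1* at 1 week (15.5, 15.1 and 16.8 CPM) lay above all NSP libraries and within the range of 24 h TNF, and its log2 fold change from 72 h was 0.59 (SE 0.19, edgeR adjusted p = 0.079). *Psmb9* had a different order, from 72 h through 24 h, 1 week, NSPs and 72 h TNF to 24 h TNF, and each *Psmb10* condition overlapped with its neighbours.

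Other genes of the pathway were described from lists written with earlier results of these data known. Of 16 other class I heavy chain genes, 8 passed the filter. *H2-Q4*, a class Ib gene, was called higher at both times, from 3.4, 2.63 and 3.1 CPM to 10.1, 6.56 and 8.02 CPM at 24 h (log2 fold change 1.44, SE 0.25, edgeR adjusted p = 0.00202) and from 3.1, 4.42 and 4.24 CPM to 14.4, 16.02 and 21.3 CPM at 72 h (2.13, SE 0.24, edgeR adjusted p = 1.35e-05). *H2-M2*, another class Ib gene, was at 0 in all NSP, 24 h and 1 week libraries and at 0.819, 0.522 and 0.708 CPM with TNF at 24 h. At 72 h it was at 0.151, 0 and 0 CPM without TNF, and at 0.113, 2.32 and 2.57 CPM with it. The first 72 h TNF library, which stood apart, overlapped with the untreated libraries. *H2-M2* passed the filter on low counts through the TNF libraries alone, so its levels are given with no test. *H2-T22*, *H2-T23*, *H2-T24*, *Mr1*, *Cd1d1* and *H2-M5* were not called higher or lower by edgeR at either time. The log2 fold changes of the first 5 lay between -0.15 and 0.14 at 24 h and between -0.46 and 0.26 at 72 h. *H2-M5* was at 2.25 and 0.79 (edgeR adjusted p = 0.213 and 0.447). None of the 7 genes other than *H2-M2* was called lower by edgeR or DESeq2, or had an unadjusted p under 0.05 in that direction. Of all genes, edgeR called 1.32% lower at 24 h and 5.21% at 72 h.

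Of 8 genes for peptide trimming and loading, *Erap1*, which trims peptides in the endoplasmic reticulum, was called higher at 24 h (19.0 ± 1.44 to 31.5 ± 4.46 CPM, SD, n = 3, log2 fold change 0.73, edgeR adjusted p = 0.0277). *Lnpep*, an aminopeptidase of endosomes, was called higher at 72 h (367 ± 33.9 to 498 ± 54.8 CPM, SD, n = 3, log2 fold change 0.44, edgeR adjusted p = 0.0333). Both calls were lost without the first TNF library of that time (log2 fold change 0.58 and 0.35, edgeR adjusted p = 0.137 and 0.128). No other gene of that list was called by edgeR at either time. None of 5 proteasome activator and assembly genes, 3 standard catalytic subunits and 11 other core proteasome subunits passed the edgeR test with TNF at 24 h or 72 h, and their median log2 fold changes were 0.15, 0.01 and 0.04 at 24 h and 0.03, -0.32 and -0.28 at 72 h. DESeq2 called none of them either, and at an unadjusted p under 0.05 edgeR had 0 at 24 h and, at 72 h, 2 activator and assembly genes (1 in each direction), 1 standard subunit and 3 other core subunits (all lower). Against NSPs, by contrast, all 3 standard catalytic subunits and all 11 other core subunits were called lower at 24 h and at 72 h, where 25.5% and 27.2% of all tested genes were called lower, among them *Psmb6* (log2 fold change -0.77, SE 0.15, edgeR adjusted p = 0.000429 at 24 h, and -0.97, SE 0.15, edgeR adjusted p = 3.53e-05 at 72 h). *Psmb9* thus fell beside the standard subunits during untreated differentiation, while the heavy chain genes rose.

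Transcription factors of class I and class II genes numbered 18, and all passed the filter. With TNF, *Irf1*, an interferon regulatory factor, rose from 10.7, 9.95 and 11.2 CPM to 37.7, 24.8 and 25.3 CPM at 24 h (log2 fold change 1.46, SE 0.18, edgeR adjusted p = 7.26e-05) and from 12.5, 15.1 and 16.8 CPM to 36.1, 39.1 and 40.4 CPM at 72 h (1.38, SE 0.17, edgeR adjusted p = 4.32e-05). *Relb* and *Nfkb2*, subunits of the alternative NF-κB dimer, rose at both times, *Relb* by a log2 fold change of 2.52 and 2.28 (edgeR adjusted p = 2.58e-06 and 2.62e-06) and *Nfkb2* by 1.15 and 1.18 (edgeR adjusted p = 0.000408 and 0.000111). *Nfkb1* was called higher at 24 h alone (0.43, edgeR adjusted p = 0.0201). *Irf9*, part of the complex that type I interferon activates, was called lower at 72 h (19.4 ± 0.735 to 13.5 ± 2.42 CPM, SD, n = 3, log2 fold change -0.52, edgeR adjusted p = 0.0326). Without the first TNF library of the time, the calls of *Nfkb1* (0.34, edgeR adjusted p = 0.126) and *Irf9* (-0.38, edgeR adjusted p = 0.146) were lost, and those of *Irf1*, *Relb* and *Nfkb2* were kept.

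Of 12 genes for interferons, their receptors and signaling, 9 passed the filter. *Ifng* had 0 counts in every library. *Ifngr2*, a chain of the interferon-γ receptor, rose with TNF from 21.5, 21.9 and 16.3 CPM to 59.5, 45.6 and 48.0 CPM at 24 h (log2 fold change 1.36, SE 0.15, edgeR adjusted p = 2.25e-05) and from 22.6, 26.8 and 29.9 CPM to 57.8, 61.6 and 60.3 CPM at 72 h (1.18, SE 0.15, edgeR adjusted p = 3.61e-05). *Ifngr1*, the other chain, was called at 72 h (0.48, edgeR adjusted p = 0.0482) and not at 24 h (0.51, edgeR adjusted p = 0.075), and *Socs3*, an inhibitor of cytokine signaling, at 24 h (1.12, edgeR adjusted p = 0.00316). Without the first TNF library of the time the *Ifngr1* call was lost (0.43, edgeR adjusted p = 0.129), and those of *Ifngr2* and *Socs3* were kept. Of 9 class II presentation genes 3 passed the filter and none was called with TNF by edgeR or DESeq2 at either time, with 0 at an unadjusted p under 0.05 at 24 h and 1 at 72 h. *Cd74*, the class II invariant chain, was at most 0.522 CPM in any library.

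**Figure D5:**
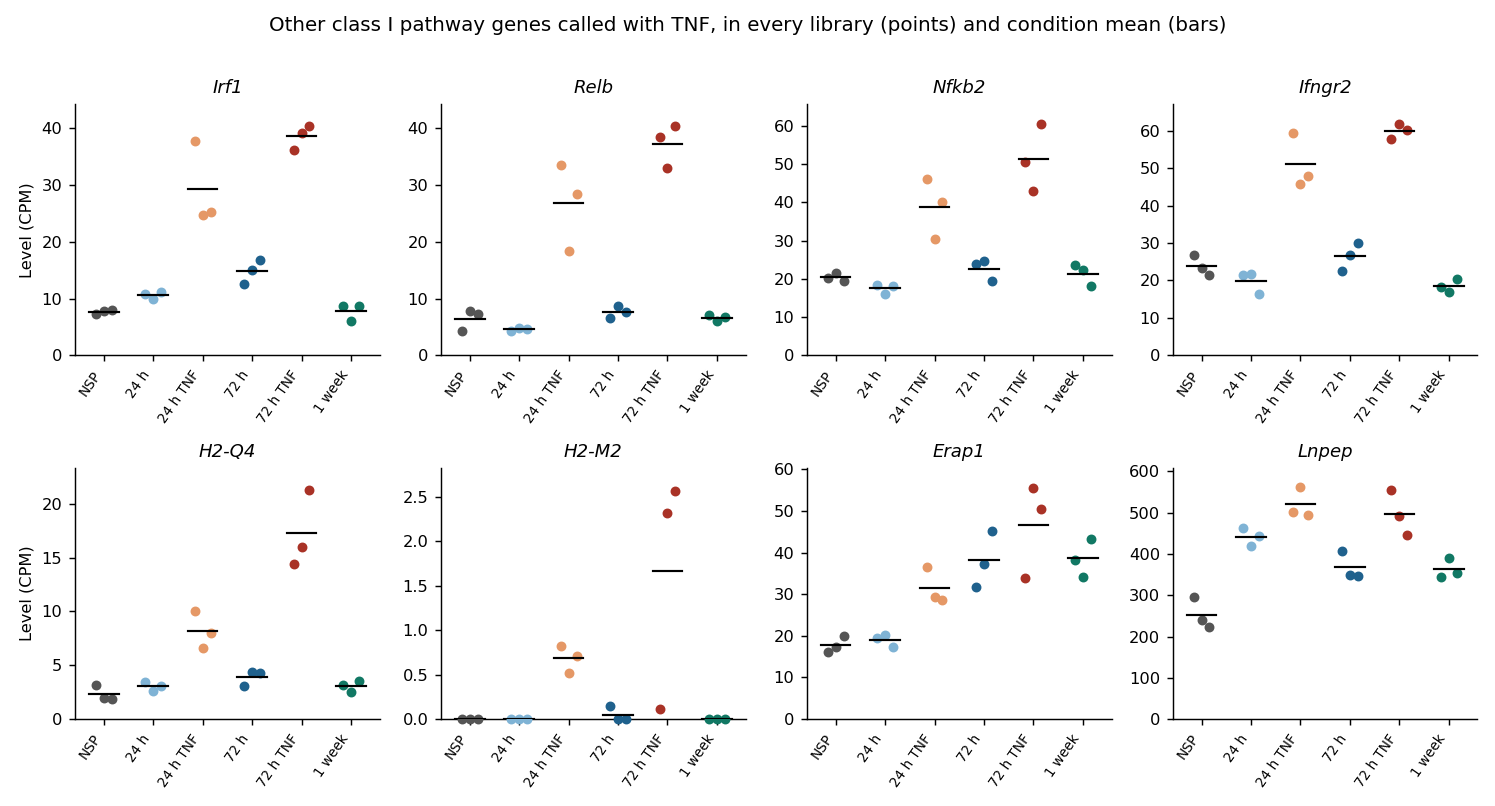
Level in CPM (y axis, from 0) of 8 further genes of the pathway in each of the 18 libraries (points) by condition (x axis), with the condition mean as a bar. *Irf1*, *Relb*, *Nfkb2*, *Ifngr2* and *H2-Q4* had every TNF library above every untreated library of its time, whereas *H2-M2* in the first 72 h TNF library was at 0.113 CPM, within the untreated range.

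Markers of other cells that express class I strongly were looked at beside these results. The 11 microglia and macrophage markers summed to between 3.31 and 6.73 CPM in the untreated libraries, to between 8.37 and 18.6 CPM at 24 h with TNF and to between 5.34 and 12.6 CPM at 72 h with TNF. *C1qa* was at 0 in all 18 libraries, and *Itgam* was at 0 in every group but 24 h TNF. *Cd68*, a lysosomal gene of macrophages that other cells also express, was at 15.3, 4.55 and 4.78 CPM at 24 h with TNF (log2 fold change 2.06, edgeR adjusted p = 0.0409) and at 9.58, 2.09 and 2.31 CPM at 72 h with TNF. Its highest value at each time was in the library that stood apart, and without it the log2 fold change was 1.22 at 24 h, where the call was lost (edgeR adjusted p = 0.314), and 0.10 at 72 h. The 4 lymphocyte markers summed to at most 1.1 CPM in any library, with *Cd3e* at 0 throughout. Of 7 astrocyte markers, *Gfap* and *S100b* were called lower with TNF at 72 h. *Kdr* of the endothelial and *Rbfox3* of the neuronal list were also called lower at 72 h, and of these 4 calls that of *Rbfox3* was lost without the first 72 h TNF library (log2 fold change -1.52, edgeR adjusted p = 0.0713). The fibroblast and neural stem cell lists had 0 edgeR calls with TNF at either time. At an unadjusted p under 0.05 they had 0 at 24 h and, at 72 h, 0 and 2, and DESeq2 called 1 neural stem cell gene at 72 h. With both first TNF replicates left out, the log2 fold change with TNF at 24 h was 1.42 for *H2-D1* and 0.99 for *B2m*. That of *H2-K1* was 1.03, against 1.72 with all libraries. *Tap2* was at 0.82 and lost its call (edgeR adjusted p = 0.105). At 72 h the values were 1.66 for *H2-D1*, 0.96 for *B2m*, 1.44 for *H2-K1* and 0.94 for *Tap2*. The part that changes in cell makeup had in the results was not tested.

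The 9 tested genes were also compared by their course over the 18 libraries, as a description in which the libraries share groups. The Pearson correlation of each with the mean profile of all 9 (log2 CPM, as z scores) was 0.93 for *H2-D1*, 0.93 for *H2-K1*, 0.9 for *Tap2* and 0.87 for *B2m*. It was lowest for *Psmb9* (0.49) and *Psmb10* (0.3). *H2-D1* and *H2-K1* had a correlation of 0.961 with each other, and that of *Nlrc5* with the other genes ran from -0.062 (*Psmb10*) and -0.05 (*Psmb9*) through 0.282 (*Tap1*), 0.351 (*B2m*) and 0.695 (*H2-K1*) to 0.812 (*H2-D1*). The 5 other genes with the profile most like that mean were *Slc39a4* (0.98), *Relb* (0.95), *Nfkbie* (0.95), *Cldn1* (0.95) and *Apobec1* (0.95). *Slc39a4*, a zinc transporter, was at 0.144 ± 0.0889 CPM at 24 h and 1.87 ± 0.664 CPM with TNF, and at 0.768 ± 0.28 CPM at 72 h and 7.02 ± 3.62 CPM with TNF (SD, n = 3). *Apobec1*, a cytidine deaminase, was at 5.24 ± 0.0974 CPM in NSPs, 19.2 ± 2.22 CPM at 72 h and 60.9 ± 6.09 CPM at 72 h with TNF.

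Overlapping annotation bears on some of these counts. The library kit kept the strand, but whether the counting used it was not given in the sources used here. Of 456 annotated genes whose exons lay wholly inside exons of the opposite strand, 1 had at least 10 counts over all libraries. Of 704 genes whose exons lay wholly inside exons of another gene of the same strand, 8 had at least 10 counts. Few counts in both kinds do not show how reads in shared stretches were treated. Exons of the opposite strand covered 14.7% of the exonic bases of *Psmb8*, 18.5% of *Tap2*, 5.79% of *Psmb9* and 3.87% of *Tap1*, 0.918% of *Nlrc5*, and none of *H2-D1*, *H2-K1*, *B2m* and *Psmb10*.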

How the data were processed

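Read counts per gene were deposited by the authors as 1 table for all 18 libraries, made from stranded total RNA libraries after ribosomal RNA removal. The submitters' processing notes name FastQC, Trim Galore, STAR, SAMtools, featureCounts and mm10, and their settings and the treatment of multi-mapped reads were not given in the sources used here. Raw counts were tested with edgeR 4.0.16 in R 4.3.3 (quasi-likelihood test, TMM scaling, filterByExpr with a minimum count of 10, all 6 conditions in 1 fit, Benjamini-Hochberg adjustment over 20067 genes, threshold 0.05). CPM used TMM library sizes, and RPKM the summed exon length of GENCODE M21. The biological coefficient of variation was 0.18. On simulated counts for 24 h TNF against 24 h (17854 genes, 200 changed), the test found 65% of 2-fold and 92% of 4-fold changes, with 9 false calls. That simulation fitted those groups alone and made no library stand apart, so its rates are not those of the main fit. DESeq2 1.42.0 was an alternative. Members, lists and tests were chosen with earlier results of these data known. All 10 members are named, as are list genes called with TNF and the 5 genes most like the members' mean profile, and other genes were named after their values were seen. Same-numbered libraries deviated together (every correlation over 0.1) only between the TNF groups, at 0.255 to 0.291. In both of these groups the first replicate stood apart, so the correlations do not show that equal numbers mark a shared culture. Some results for list genes are not reported here.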

Additional observations from a re-analysis of the deposited data

How the results depend on the processing

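Counts of the 9 tested genes that edgeR called depended on single libraries in some comparisons. Leaving out each library in turn gave 4 to 7 for TNF at 24 h (7 with all libraries), 3 to 6 for 24 h against NSPs (6), and 1 to 5 for 72 h TNF against 24 h TNF (2). It gave 5 to 6 for TNF at 72 h, 6 to 7 for 72 h against NSPs and 4 to 6 for 72 h against 24 h. For 72 h TNF against 24 h TNF the count was 4 with no filter, 4 with at least 10 counts in every library, 1 with only the groups compared, and 4 without both first TNF replicates, an alternative chosen after seeing the data. For 1 week against 72 h it was 3 with no filter, 0 with at least 10 counts in every library, and 3 with only the groups compared. The low count with the stricter filter came with 7 genes tested, as *Nlrc5* was left out. Elsewhere the causes were not tested. The replicate number as a block left 7 and 6 calls with TNF at 24 h and 72 h and 2 between the TNF groups. It added *Psmb10* at 72 h against NSPs. The third 72 h library carries the number 4 in the table and 3 in its label. With it unpaired in the block, *Tap2* was lost with TNF at 24 h and 72 h (6 and 5 calls), *B2m* was lost at 72 h against 24 h (4 calls) and gained between the TNF groups (3 calls). The mean log2 ratio of the proteasome pairs was 0.85 to 1.14 at 24 h and 1.40 to 1.67 at 72 h with a library left out, and without an offset it had no value, since *Psmb8* was at 0.

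Of 1079 values for single genes under alternatives, 992 kept their direction and side of the threshold, 33 lost a call, 28 gained one and 26 changed sign, none of the last with a call (lowest edgeR adjusted p 0.458). They belonged to 11 genes and comparisons, and with 1 library left out their log2 values ranged as follows. With TNF at 72 h, *Tapbp* ranged from -0.17 to 0.055 and *Nlrc5* from -0.14 to 0.17. The interaction ranged from -0.37 to 0.12 for *H2-D1*, from -0.60 to 0.38 for *H2-K1*, from -0.33 to 0.015 for *B2m*, from -0.015 to 0.29 for *Tap1* and from -0.27 to 0.13 for *Tap2*. At 24 h against NSPs, *H2-K1* ranged from -0.20 to 0.35 and *Psmb10* from -0.23 to 0.047. At 72 h against NSPs, *B2m* ranged from -0.11 to 0.23, and for 72 h TNF against 24 h TNF, *Nlrc5* from -0.24 to 0.10. Without both first TNF replicates, the sign changed for *Tapbp* (0.026) and *Nlrc5* (0.16) with TNF at 72 h, for *Nlrc5* between the TNF groups (0.25), and for the interaction of *H2-D1* (0.25), *H2-K1* (0.41) and *Tap2* (0.11). It also changed for *Nlrc5* with TNF at 72 h with only the groups compared (0.015), for *Psmb10* at 24 h against NSPs with at least 10 counts (0.0051), and, with the third 72 h library unpaired in the replicate block, for *B2m* in the interaction (0.048) and at 72 h against NSPs (-0.16). *Psmb8* and *Psmb9* rested on at most 22 counts a library, which limits the precision of their values.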
